A study of Homo sapiens with 13 samples.

Results

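The genes of synaptic vesicle release were read in the open chromatin of a pair of small cell lung cancer (SCLC) lines. The set holds 38 named genes of the vesicle membrane, of vesicle fusion, of the active zone and of vesicle retrieval, out of 20007 protein-coding genes of GENCODE release 44. All 38 were found by symbol. They were listed by name and not by an accessibility value, but earlier results of these data were known when the list was made.

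ATAC-seq was used, an assay whose transposase, Tn5, inserts sequencing adaptors into open DNA. H82 is an established human line of the NEUROD1 subtype of SCLC (SCLC-N), and H146 an established line of another subtype. Each was sequenced untreated and after 14 days with FHD-286 at 100 nM, a drug that blocks the ATPases SMARCA4 and SMARCA2 of the SWI/SNF chromatin remodeller. There were 3 untreated and 3 treated H82 libraries, and 4 untreated and 3 treated H146 libraries, 13 in all. The deposited values were 1 atlas of accessible regions for each line, on hg38, pooled over its untreated and treated libraries. A region therefore had a start and an end, but no height, no read count and no library of origin. The effect of FHD-286 was not tested, values had no spread between cultures, and the depth of the libraries was unknown. The H82 atlas held 206927 regions and the H146 atlas 174093. The lines also differed in number of libraries and may differ in DNA copies, and these cannot be told apart from a difference in chromatin. A region that is open in few cells cannot be told apart from a region that is open in many. With 1 atlas per line there was no test between the lines, and every comparison below is a description of these atlases.

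Neurons and neuroendocrine cells release transmitters and hormones by fusing vesicles with the cell membrane. The vesicle protein VAMP2 (synaptobrevin) zips up with SNAP25 and syntaxin 1A (STX1A) of the target membrane into the SNARE complex, synaptotagmins sense the calcium that triggers fusion, and complexins hold the complex ready. RAB3 proteins, RIMs, UNC13 proteins and the scaffolds bassoon and piccolo dock and prime the vesicles, and dynamin and its partners retrieve the membrane afterwards. Synaptophysin (SYP) is a pathologist's marker of neuroendocrine tumours, SCLC included. Outside the nervous system many of these genes are held silent by REST, a repressor that binds the RE1 element.

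The markers of the lines gave a first check of the labels. INSM1, CHGA, SYP and NCAM1, known from neuroendocrine SCLC, had in both lines a region no more than 1 kb from the transcription start site (TSS). NEUROD1 had such a region in H82 only. PTPRC and CD3E of blood cells and ALB of hepatocytes had none in either line. POU2F3 of the tuft-like subtype, COL1A1 and COL1A2 of fibroblasts and PECAM1 of endothelium had a TSS region in both lines, and the part of other cells in the results was not tested.

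Nearly all of the release genes had an open TSS in both lines. A TSS region, meaning any region within 1 kb of the 5′ end of the gene, was found for 38 of the 38 genes in H82 and for 37 in H146. Of all protein-coding genes the share was 80.5% in H82 and 77.2% in H146. The TSS was open in both lines for 37 of the 38 genes, against 75.4% of all genes and 18 of 19 broadly expressed relatives. It was open in H82 only for 1 gene, CPLX3, against 5.09% of all genes. None of the 38 had a TSS region in H146 only (1.86% of all genes) or in neither line (17.7%). For SNAP25 and DNM1 the first start of a protein-coding transcript lay 46.4 and 11.7 kb from the 5′ end of the gene. Those starts were also open in both lines.

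Base composition around the TSS also differed from that of all genes, and its part in this excess was not tested. The 1 kb around the TSS of the 38 genes had a median GC content of 65.3% and a median ratio of observed to expected CpG of 0.731, against 59.2% and 0.688 over all genes. Among genes with a CpG ratio of at least 0.6, the TSS was open in both lines for 28 of 28 release genes and for 95.3% of all 12012. Among genes below 0.6 it was open in both lines for 9 of 10 release genes and for 45.6% of all 7995. CPLX3 was the exception, with a CpG ratio of 0.587. SYT4, with 0.492, was among the 9 that were open in both lines.

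The region over the TSS was about as wide in either line for most of the genes. Over the 37 genes open in both lines its median width was 2171 bp in H82 and 2157 bp in H146, against 1832 and 1732 bp over all 15083 genes open in both. It was wider in H146 for 23 genes, wider in H82 for 13, and exactly 1539 bp in both for VAMP1, a vesicle SNARE. The matching counts over all genes were not made. The median log2 ratio of widths, H82 to H146, was -0.029 over the 37 genes and -0.008 over the 15083. Regions within 500 bp were merged by the authors, so a width can span several sites. The genes that stand away from the diagonal are named in the plot of TSS region widths.

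**Figure D1:**
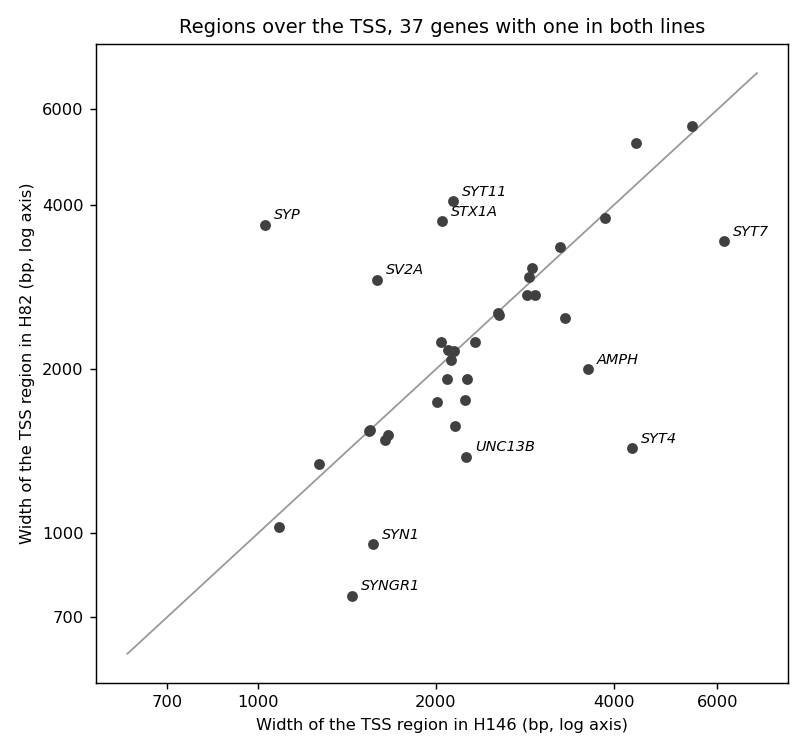
Width in bp of the widest region within 1 kb of the TSS in H146 (horizontal, log axis) and in H82 (vertical, log axis), 1 point for each of the 37 release genes open in both lines, with the line of equal width. SYP lies furthest above the line with 3687 bp in H82 and 1027 bp in H146, and SYT4 furthest below it with 1431 and 4292 bp.

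SYP, the vesicle protein used to diagnose these tumours, had a TSS region of 3687 bp in H82 and of 1027 bp in H146, and the H146 region lay wholly inside the H82 region. SYT11, a synaptotagmin without full calcium binding, had 4071 bp in H82 and 2141 bp in H146, over a TSS it shares with GON4L. STX1A had 3740 and 2044 bp, and the vesicle glycoprotein gene SV2A had 2922 and 1587 bp. Wider in H146 were SYT7, a slow high-affinity calcium sensor, with 6156 bp against 3435 bp in H82, and AMPH (amphiphysin), with 3614 against 2000 bp. SYT4 had 1 region of 4292 bp in H146 and a pair of regions of 1431 and 1370 bp in H82, both lying inside the H146 region.

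RE1-like sequences were searched over the span of each gene, meaning the gene body and 10 kb to either side. The word was TTCAGCACC, 2 unread bases, and GGACAGCGC, read on both strands with 3 or fewer mismatches over its 18 read bases. It was met 21 times in the spans of 17 of the 38 genes (44.7%), against 10.6% of all protein-coding genes. A match that lay in a region of either line was found for 10 of the 38 genes (26.3%), against 4.04% of all genes. Long spans hold more matches: among genes over 100 kb, 3 of 17 release genes (17.6%) and 6% of all genes had a match in a region. A match is a likeness of letters, and binding of REST was not measured here.

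The closest matches all lay in open chromatin. With 2 or fewer mismatches there were 9 matches in 9 of the 38 genes (23.7%), against 3.03% of all genes. All 9 lay in a region of either line, and 8 lay in a region in both lines. Of all genes, 1.55% had such a match in a region. Over all genes 673 matches were counted, and 49.3% of these lay in a region. In that count a match is repeated for each gene whose span holds it. The share of 49.3% was not matched for nearness to a TSS, and several of the 9 matches lay near one. Neuronal genes are where this element was first described, so the number of matches is a property of the gene set, and the part that was measured in these cells is whether they are open. The 9 sequences are given 5′ to 3′ on the strand of the match, with capitals for bases that fit the word and lower case for the mismatches and the 2 unread bases.
SYP: TcCAGCACCgtGGACAGaGC
SYN1: TTCAGCACCgcGGACAGtGC
SYT2: TTCAGCACCatGGACAGaGC
SYT4: TTCAGCACCtcGGACAGaaC
SYT5: aTCAGCACCcgGGACAGCGC
SYT7: TTCAGCACCttGGACAGCtC
SNAP25: TTCAGCACCggGGACAGCGg
CPLX2: TTCAGCACCacGGAgAGCGC
UNC13A: TTCAGCACCgtGGACAGCGC

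Counted from the 5′ end of the gene, 4 of these lay within 300 bp and 5 lay further inside. Those of SNAP25 and CPLX2 lay near an internal TSS. The SYP match (chrX:49200123-49200142, minus strand, hg38) had its centre 86 bp downstream of the TSS, in the wide H82 region and in the narrow H146 region alike. The SYN1 match (chrX:47620071-47620090) lay upstream of the TSS of synapsin I, at -223 bp. Synapsin I ties vesicles to the cytoskeleton. The SYT4 match (chr18:43277294-43277313) lay 232 bp and the SYT5 match (chr19:55180201-55180220) 79 bp downstream of their TSS. The match of SYT2, a fast calcium sensor, lay 17.3 kb into the gene (chr1:202693145-202693164), in an H82 region of 364 bp and an H146 region of 376 bp. The SYT7 match lay 13.8 kb into the gene (chr11:61567351-61567370), and the same regions held another match with 3 mismatches.

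The SNAP25 match lay 47.3 kb into the gene (chr20:10219672-10219691), near the end of an H82 region of 3937 bp and an H146 region of 4278 bp. The starts of the protein-coding transcripts of SNAP25 began 46.4 kb from the 5′ end, close to the match. The CPLX2 match lay 75.6 kb into the complexin 2 gene (chr5:175871889-175871908), in a region of 1860 bp in H82 and 2256 bp in H146. An internal TSS of CPLX2 lay close to it, 75.3 kb into the gene. UNC13A, whose product primes vesicles for fusion, had the only full match, 6.60 kb into the gene (chr19:17681754-17681773). It lay in an H82 region of 200 bp, the narrowest width in the atlas, and in no H146 region. With 3 mismatches, a match in SYN2 (chr3:12041242-12041261) lay in an H82-only region of 1509 bp, and the third match of SYT7 lay in a region of both lines. The other 9 matches, in SV2B, SV2C, SYN3, UNC13B, RAB3B, ERC2 and DNM1, all with 3 mismatches, lay in no region of either line.

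**Figure D2:**
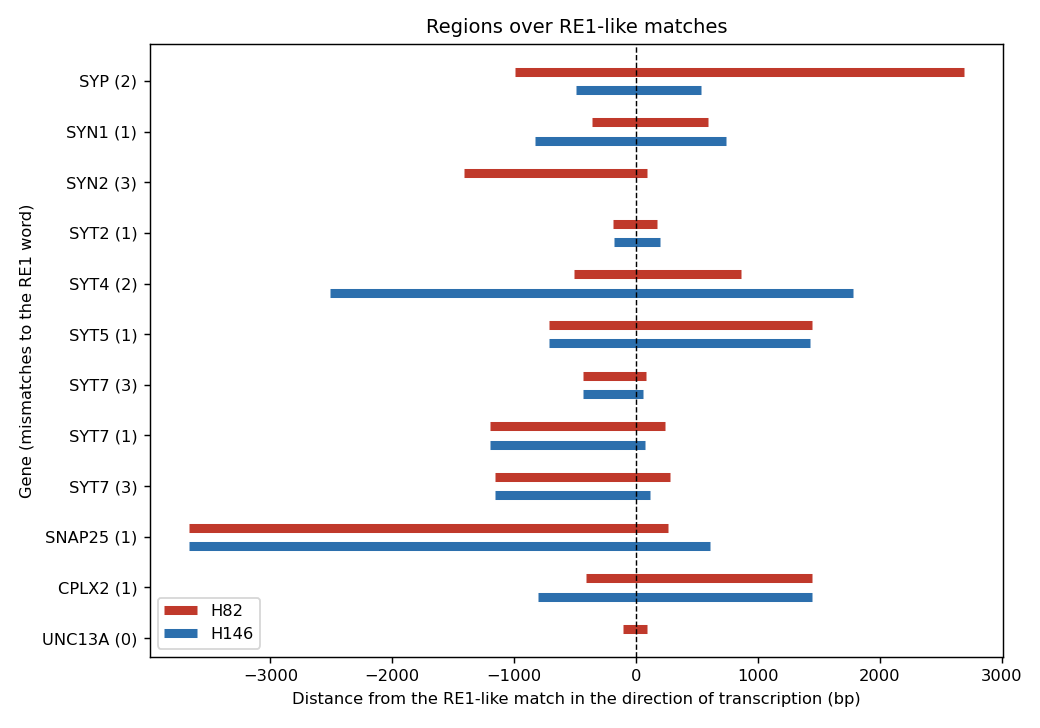
Accessible regions over the 12 RE1-like matches that lie in a region, drawn as bars from the start to the end of the region in bp from the match, in the direction of transcription, red for H82 and blue for H146; the number of mismatches is in brackets. A bar is drawn in both lines for 10 of the 12 matches, and only in H82 for SYN2 and UNC13A.

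The SYN1 promoter is shown because it alone, among 45 promoters of the release genes in RefSeq (31 genes with an entry, GRCh38.p14), holds an RE1-like match in the 300 bases from before the start to 50 after it. Of all 35116 promoters in that table, 0.128% hold the word with 3 or fewer mismatches. The stretch chrX:47619808-47620107 (minus strand) overlapped a region in both lines. Capitals mark the RE1-like match, a CAGATG form of the E-box on the reverse strand, and a CAGCTG form at the end. These 2 E-box words are read by basic helix-loop-helix factors such as NEUROD1, and are held by 14.7% and 17.9% of all promoters.
SYN1 promoter: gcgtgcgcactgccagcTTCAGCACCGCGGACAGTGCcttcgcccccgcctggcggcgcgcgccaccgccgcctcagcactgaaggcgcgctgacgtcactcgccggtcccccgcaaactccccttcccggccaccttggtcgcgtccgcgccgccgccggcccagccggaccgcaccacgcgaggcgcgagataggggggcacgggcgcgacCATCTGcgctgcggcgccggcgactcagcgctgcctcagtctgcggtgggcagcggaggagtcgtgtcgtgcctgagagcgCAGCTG

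Over the whole spans, the release genes leaned to H82 no more than all genes did. The median number of regions per span was 10.5 in H82 and 9.5 in H146, against 6 and 5 over all protein-coding genes. Regions covered a median 11.3% of the span in H82 and 8.19% in H146, against 8.10% and 6.70%. The log2 ratio of covered bases, H82 to H146, with 200 bp added to each, had a median of 0.06 over the 38 genes and of 0.14 over all genes. It was above 0 for 21 of the 38 genes and below 0 for 17, and 59.4% of all genes were above 0. At least 2-fold more was covered in H82 for 5 of the 38 genes, against 15.1% of all genes, and in H146 for 1 of the 38, against 2.2% of all genes. Both counts are near the background.

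Gene length split the set. The 10 release genes under 20 kb had a median covered share of 29.6% in H82 and 22.2% in H146, against 13.4% and 10.6% over all genes of that length. For the 11 genes of 20 to 100 kb the medians were 14.8% and 10.5%, against 7.51% and 6.23%. The 17 genes over 100 kb went the other way, with 3.14% and 3.17% against 4.63% and 3.89%. They were also longer, with a median of 270.6 kb against 173.9 kb for all genes over 100 kb. In short genes the 10 kb to either side makes up much of the span and can hold the regions of neighbouring genes.

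**Figure D3:**
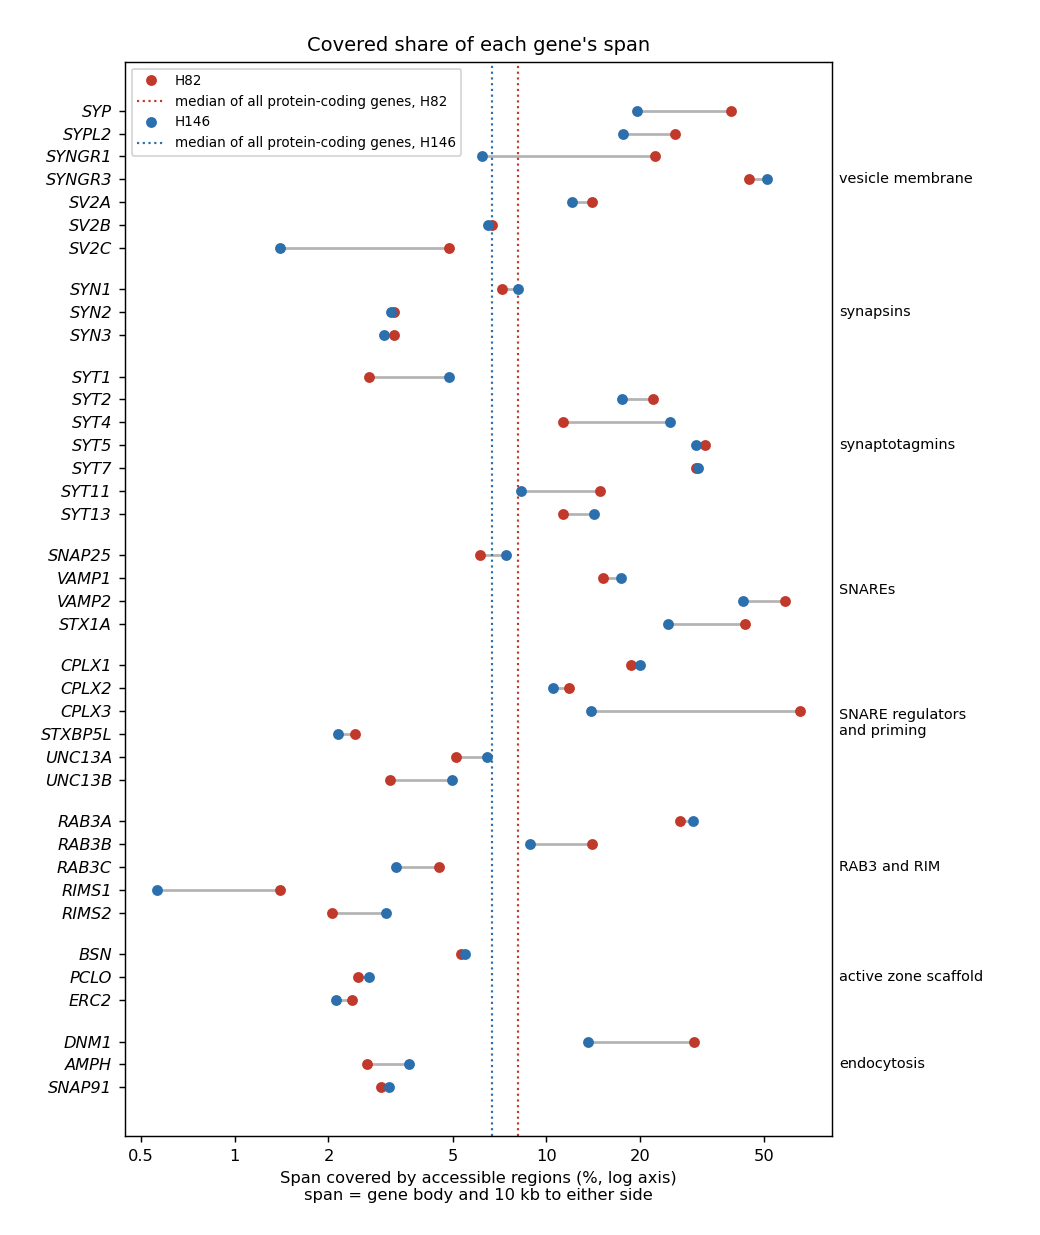
Share of the span covered by accessible regions (per cent, log axis) for each of the 38 release genes, grouped by role, red for H82 and blue for H146, with dotted lines at the medians of all protein-coding genes. CPLX3, SYNGR1, SV2C and RIMS1 show the widest gaps with H82 to the right, and SYT4 and SYT1 with H146 to the right.

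The log2 ratio was above 0 for 6 of the 7 vesicle membrane genes, with a median of 0.53, and for 59.4% of all genes. Only 3 of the 7 lay above the ratio of their own chromosome, a count with no share of all genes beside it. SYP had 39.0% of its span covered in H82 and 19.6% in H146, a log2 ratio of 0.97, which was 0.39 when regions over the promoters of other genes, here PRICKLE3, were left out. Its relative SYPL2 had 25.8% and 17.6%. The synaptogyrin genes went opposite ways, with 22.4% and 6.22% for SYNGR1 and 44.5% and 50.9% for SYNGR3. Of the SV2 glycoproteins, through which botulinum toxin enters neurons, SV2A had 14.0% and 12.1%, SV2B 6.69% and 6.52%, and SV2C 4.88% and 1.40%. The ratio of SV2B, 0.04, was -0.20 when only regions of at least 500 bp were read.

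The synapsins, which hold vesicles in reserve, lay close together in the lines over the whole span. SYN1 had 7.23% in H82 and 8.11% in H146, SYN2 had 3.24% and 3.17%, and SYN3 had 3.23% and 3.004%. The log2 ratio of SYN1 was 0.78 in the gene body alone, and that of SYN3 was -0.50 within 10 kb of the TSS. The 7 synaptotagmins had a median log2 ratio of -0.03, with 3 above 0 and 4 below. The fast calcium sensors differed in direction: SYT1 had 2.69% in H82 and 4.87% in H146, and SYT2 22.04% and 17.5%. SYT5 had 32.2% and 30.3%, and SYT7 30.2% and 30.7%. SYT4 had 11.3% and 24.9%, SYT11 14.8% and 8.27%, and SYT13, a form that does not sense calcium, 11.3% and 14.2%.

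The SNARE genes were mostly well covered in both lines. VAMP2 had 58.3% of its span covered in H82 and 42.8% in H146, and a region over the PER1 promoter was part of it. STX1A had 43.2% and 24.5%, a log2 ratio of 0.81. VAMP1 had 15.2% and 17.4%, and SNAP25, a long gene, 6.10% and 7.42%. Among the regulators, the log2 ratio was above 0 for 3 of 6 genes, with a median of 0.04. The complexin genes had 18.6% and 19.98% for CPLX1, 11.8% and 10.5% for CPLX2, and 65.0% and 13.9% for CPLX3. STXBP5L (tomosyn 2), which blocks SNARE assembly, had 2.44% and 2.14%. The priming factors UNC13A and UNC13B had 5.14% and 6.45%, and 3.14% and 4.98%.

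RAB3 genes, for the GTPases that mark docked vesicles, had 26.9% in H82 and 29.5% in H146 for RAB3A, 14.0% and 8.89% for RAB3B, and 4.53% and 3.29% for RAB3C. Their partners at the active zone differed in direction, with 1.40% and 0.563% for RIMS1 and 2.06% and 3.06% for RIMS2. The 3 scaffold genes BSN, PCLO and ERC2 had log2 ratios of -0.05, -0.12 and 0.17. Of the genes of membrane retrieval, DNM1 (dynamin 1), which pinches vesicles off, had 29.7% and 13.6%, AMPH 2.66% and 3.64%, and the clathrin adaptor SNAP91 2.94% and 3.14%. In all, 24 of the 38 genes had a log2 ratio within 0.5 of 0, and the share of all genes was not computed. The quartiles of the ratio were -0.18 and 0.51 over the 38 genes, and -0.16 and 0.64 over all genes. Against the ratio of their own chromosome, 13 of the 38 genes lay above and 25 below. The share of all genes below their own chromosome was not computed, so these counts show no lean of the set.

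CPLX3 had the highest log2 ratio of the set, 2.16, which was above 97.0% of all genes. Complexin 3 is known from the ribbon synapses of the retina. An H82 region of 5525 bp (chr15:74823936-74829460) covered its TSS and most of the gene, and a second of 3943 bp (chr15:74830026-74833968) covered its end. In H146 no region lay within 1 kb of the TSS. The nearest were 1 of 209 bp, at -3.08 kb from the TSS, and 1 of 448 bp inside the gene, at 2.33 kb, which covered 8.11% of the wide H82 region. Both lines had 7 regions in the span, so the lines differed in width and not in number. Chromosome 15 as a whole was covered more in H82, with a log2 ratio of 0.93, and CPLX3 stood 1.23 above that. Its RefSeq promoter (chr15:74826377-74826676, plus strand) is shown as the only promoter of a gene's own TSS that was open in a single line, with TAATCC, the word of OTX2, in capitals. That word is held by 6.36% of all promoters.
CPLX3 promoter: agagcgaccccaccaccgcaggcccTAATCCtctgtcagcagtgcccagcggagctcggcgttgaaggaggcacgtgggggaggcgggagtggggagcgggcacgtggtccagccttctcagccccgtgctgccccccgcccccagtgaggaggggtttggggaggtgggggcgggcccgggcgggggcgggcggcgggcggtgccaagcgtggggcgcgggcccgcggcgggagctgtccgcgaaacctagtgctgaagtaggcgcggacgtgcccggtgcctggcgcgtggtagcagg

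SYNGR1 had a log2 ratio of 1.79, and 1.44 above its chromosome. The TSS region itself was narrower in H82, with 767 bp against 1443 bp in H146. The difference came from an H82 region of 9023 bp in an intron (chr22:39356322-39365344), the widest region of the whole set. H146 had a pair of regions inside it, of 443 and 253 bp, which covered 7.71% of it. The wide region reached over a further TSS of SYNGR1, 14.2 kb downstream of the 5′ end, where H146 had no region within 1 kb. The promoter at that internal start (chr22:39363897-39364196, plus strand) is shown with its CAGATG word in capitals.
SYNGR1 internal promoter: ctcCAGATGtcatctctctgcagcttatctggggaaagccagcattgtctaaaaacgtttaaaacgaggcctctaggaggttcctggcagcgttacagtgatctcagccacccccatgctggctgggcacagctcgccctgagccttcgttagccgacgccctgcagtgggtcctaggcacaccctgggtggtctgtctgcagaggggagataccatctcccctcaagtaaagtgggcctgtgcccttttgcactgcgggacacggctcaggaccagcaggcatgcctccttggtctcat

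RIMS1, for a scaffold that binds RAB3 on docked vesicles, had 15 H82 and 5 H146 regions, and a log2 ratio of 1.25. It was under 2-fold, at 0.07, within 10 kb of the TSS alone, and 0.86 with regions of at least 500 bp only. All 5 H146 regions overlapped an H82 region, and 10 of the 15 H82 regions were H82-only. The widest of those, 642 bp (chr6:72212645-72213286), lay over an internal TSS 326.3 kb into the gene. Its promoter (chr6:72212643-72212942, plus strand) holds the reverse forms of the FOXA word TGTTTAC and of CAGATG, both in capitals. TGTTTAC is held by 3.42% of all promoters, and it was found in 1 of the 45 promoters of the release genes, this one.
RIMS1 internal promoter: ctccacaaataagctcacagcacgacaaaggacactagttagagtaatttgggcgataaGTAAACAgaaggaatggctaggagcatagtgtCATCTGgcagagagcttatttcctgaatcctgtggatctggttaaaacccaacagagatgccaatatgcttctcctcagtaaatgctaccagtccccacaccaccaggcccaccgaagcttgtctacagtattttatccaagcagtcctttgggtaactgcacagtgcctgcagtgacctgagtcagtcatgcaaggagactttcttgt

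SV2C and DNM1 were the other genes with at least 2-fold more coverage in H82. SV2C had 19 H82 and 7 H146 regions, with a log2 ratio of 1.75. The TSS region was alike, with 2241 and 2042 bp, and 14 of the H82 regions were H82-only, most of them deep inside the gene. Within 10 kb of the TSS alone the ratio was -0.067. The widest of the H82-only regions, 2025 bp, was partly repetitive, since 30.8% of its stretches of 20 bases occurred in it more than once. DNM1 had 23 H82 and 14 H146 regions, with a log2 ratio of 1.11 that was 0.43 within 10 kb of the TSS, and all 14 H146 regions overlapped an H82 region. An H82-only region of 1316 bp lay over an internal TSS 27.1 kb into the gene. Next below 2-fold in H82 were SYP with 0.97, SYT11 with 0.81 and STX1A with 0.81.

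SYT4 had the lowest log2 ratio, -1.09, with only 1.71% of all genes lower. SYT4 is a synaptotagmin of dense-core vesicles. It had 3 regions in H82, all of them shared, and 8 in H146, of which 6 were H146-only. Counted from the TSS they lay upstream at -6.12 kb, inside the gene at 3.10, 4.83 and 5.65 kb, at its 3′ end at 9.64 kb, and past it. Chromosome 18 as a whole was covered less in H82, with a log2 ratio of -0.46, and SYT4 lay at -0.63 relative to that. The SYT4 ratio was short of 2-fold, at -0.83, within 10 kb of the TSS alone, and at -0.70 with regions of at least 500 bp only. Within 10 kb of the TSS the lowest ratio of the set was that of AMPH, at -1.09.

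SYT1, the main calcium sensor of fast release, had 28 H82 and 52 H146 regions, with a log2 ratio of -0.85. Of its regions 5 were H82-only and 29 H146-only, the largest number of the set in H146. The TSS region was alike in width, with 2519 and 2554 bp. The line-only regions lay along a gene of 588.0 kb, and the widest of the H146-only regions was 679 bp. They summed to 9756 bp in H146 and 2351 bp in H82, and the regions that overlapped the other line also summed to more in H146, with 19946 bp against 14022 bp. RIMS2, with 25 and 38 regions and a log2 ratio of -0.57, had 8 H82-only and 21 H146-only regions. UNC13B had 13 and 17 regions with a ratio of -0.65, and AMPH 13 and 14 with -0.44. UNC13B was the gene furthest below its own chromosome, at -1.07 relative to it.

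**Figure D4:**
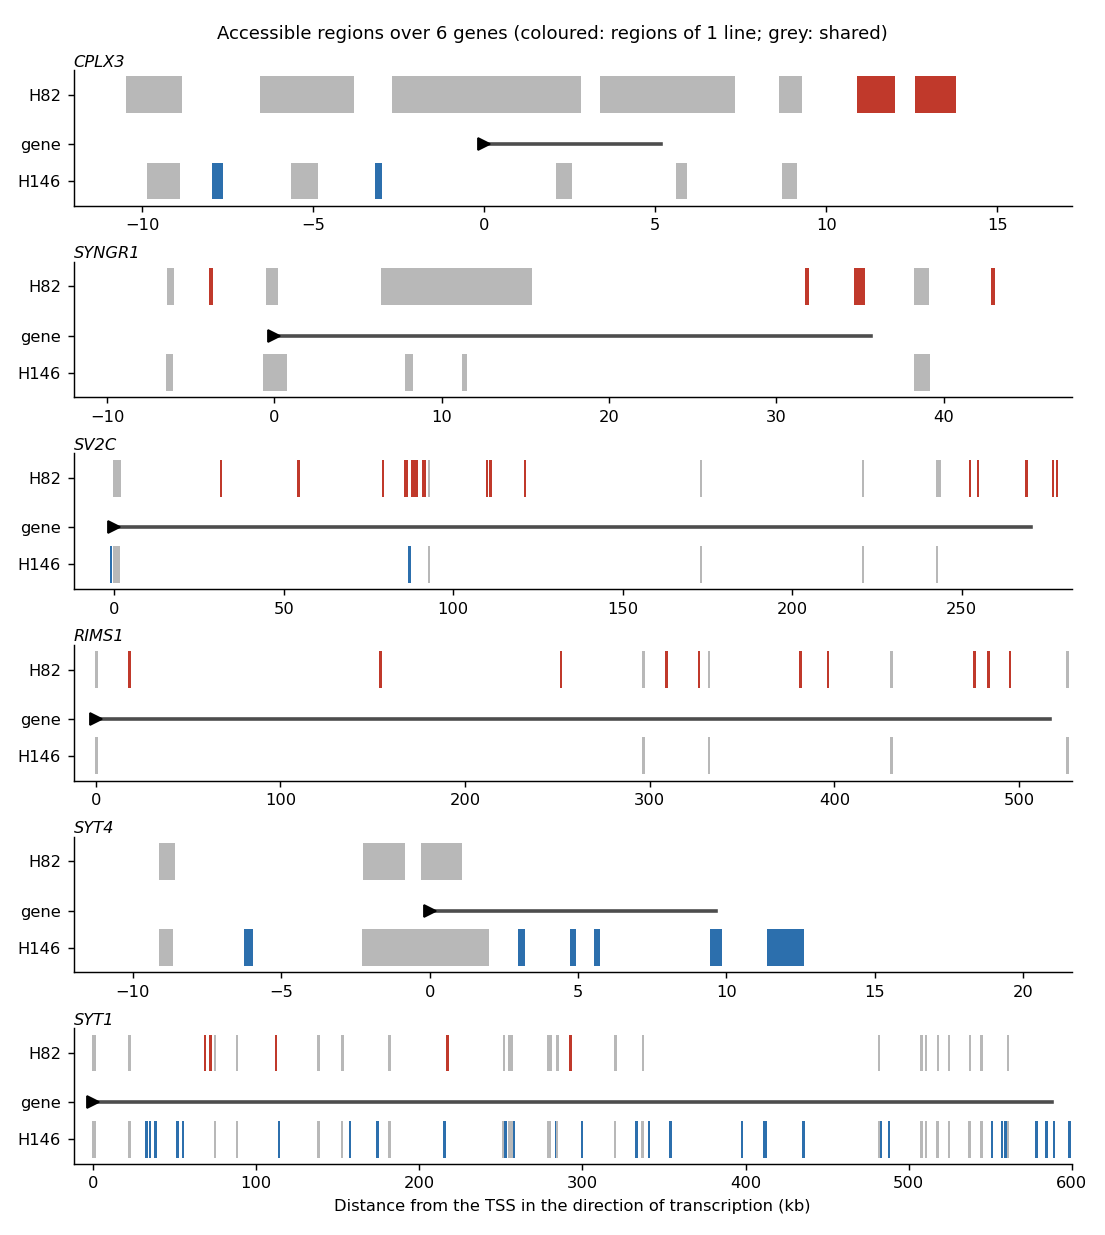
Accessible regions of H82 (upper row) and H146 (lower row) over 6 release genes against distance from the TSS in kb, in the direction of transcription, with the gene as a line; coloured regions are found in 1 line only and grey regions overlap the other line. CPLX3 and SYNGR1 show wide H82 regions over short H146 ones, SV2C and RIMS1 show H82-only regions along the gene, and SYT4 and SYT1 show H146-only regions.

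A region was called shared if at least 1 of its bases lay in a region of the other line. In the spans of the release genes 335 of 558 H82 regions (60.0%) and 344 of 516 H146 regions (66.7%) were shared, against 59.4% and 71.7% in the spans of all protein-coding genes. That left 223 H82-only and 172 H146-only regions. Line-only regions were narrow, with a median of 371 bp in H82 and 330 bp in H146, against 601 and 669 bp for shared regions. The same held in the spans of all protein-coding genes, with 377 and 315 bp for line-only and 681 and 711 bp for shared regions. Near the release genes line-only regions lay mostly in introns, 75.8% in H82 and 81.4% in H146, against 61.8% and 63.7% of shared regions. Locations were not counted over all genes.

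Line-only regions were found near most of the release genes, as near most genes. Of the 38 genes, 33 had H82-only regions, against 73.9% of all protein-coding genes, and 30 had H146-only regions, against 60.3%. SYNGR3 alone had neither, against 13.3% of all genes. There were more H82-only regions for 21 genes and more H146-only regions for 11, against 52.1% and 25.2% of all genes, and equal numbers for 6. The release genes have a median length of 84.9 kb, against 27.5 kb over all genes, and longer spans hold more regions. The long gene ERC2 had 30 H82-only and 21 H146-only regions, so line-only regions of opposite kinds stood side by side there. By contrast DNM1 had 13 and 0, RIMS1 10 and 0, SV2C 14 and 2, and SYT2 13 and 4. SYT4, with 0 and 6, was 1 of 4 genes with H146-only and no H82-only regions. The others were CPLX1 with 3, and RAB3A and SV2A with 1 each. The share of all genes with H146-only and no H82-only regions was not computed, so the count of 4 shows no trait of the set.

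**Figure D5:**
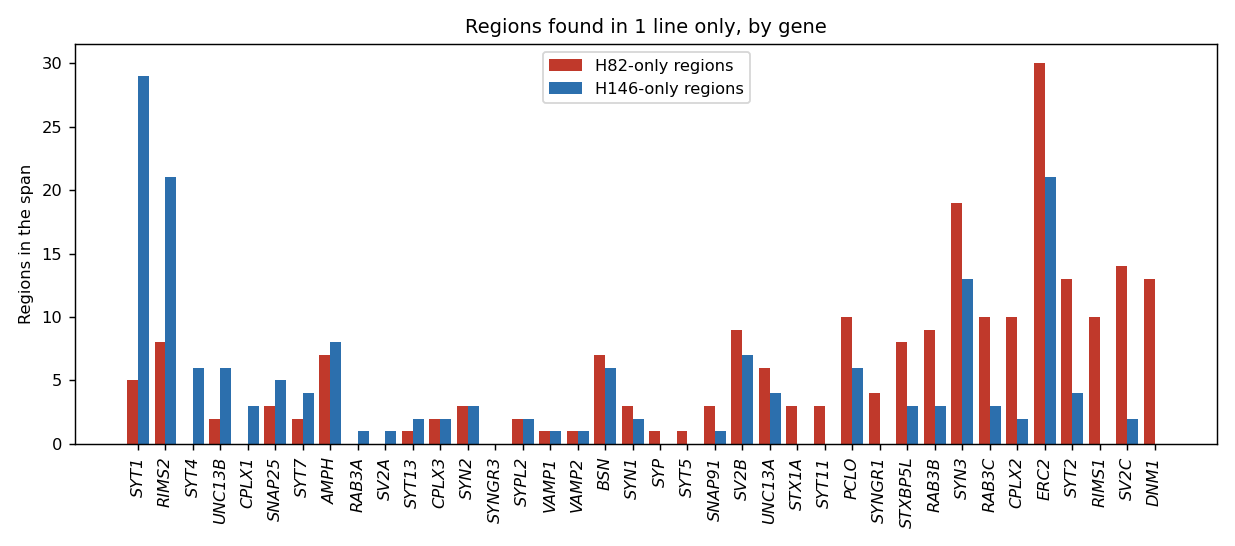
Number of regions found in 1 line only in the span of each of the 38 release genes, red bars for H82-only and blue bars for H146-only, ordered from the largest excess in H146 to the largest excess in H82. SYT1 stands at the left with 5 and 29, and DNM1 at the right with 13 and 0.

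The motif words of the line-only regions were counted per kb of region on both strands. In the H82-only regions of the release genes CAGATG occurred 1.33 times per kb (exact Poisson 95% interval 1.12 to 1.56) and in their H146-only regions 0.887 times (0.677 to 1.14). Over all gene spans the densities were 1.202 and 0.901. CAGCTG occurred 0.708 and 0.961 times per kb, against 0.819 and 0.875. TAATCC occurred 1.13 and 0.429 times per kb, against 1.23 and 0.459. These 3 words were about as dense near the release genes as near all genes, with the background inside the interval for each. TGTTTAC occurred 0.227 times per kb (0.147 to 0.335) in H82-only regions, from 25 matches in 25 regions, against 0.125 near all genes, and 0.325 (0.204 to 0.493) in H146-only regions, against 0.288. The intervals cover counting error only, and matches in 1 gene are not independent.

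Several of the genes have more than 1 start. The TSSs of protein-coding transcripts fell into 74 clusters over the 38 genes. Of these, 45 were open in both lines and 19 in neither line, against 58.5% and 31.4% of the 36170 clusters of all protein-coding genes. In H82 alone 8 were open (7.13% of all clusters) and in H146 alone 2 (2.98%). The 8 belonged to CPLX3, SYNGR1, RIMS1, DNM1, SV2B, SNAP91 and, with 2, RIMS2. The region was 241 bp wide for SV2B and 254 bp for SNAP91. The 2 open in H146 alone were in SYT1, 113.5 kb into the gene with a region of 399 bp, and in CPLX2, 65.3 kb into the gene with a region of 1353 bp. Which of these starts is used was not measured.

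Of 58 other genes of exocytosis, among them relatives of the release genes and vesicle transporters, 51 had a TSS region in both lines, against 75.4% of all genes. CPLX4, the closest relative of CPLX3, was the only gene with a TSS region in a single line, H82, against 5.09% of all genes. The span of CPLX4 was covered to 21.6% in H82 and 22.1% in H146. The TSS was in no region of either line for 6 (17.7% of all genes), which were SYNPR, SYT9, SYT12, STX3, RPH3A and RIMBP2. The median log2 ratio was 0.00, with 29 genes above 0 and 29 below, against 59.4% of all genes above 0. Among these, 19 are broadly expressed relatives, such as SNAP23 and STX4, which serve fusion in most cells. A TSS region in both lines was found for 18 of the 19. Their median log2 ratio was 0.26, with 13 above 0, and that of the other 39 was -0.07, with 16 above 0.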

How the data were processed

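Untreated and FHD-286-treated H82 and H146 cells were profiled by ATAC-seq. The authors trimmed paired reads with Trim Galore 0.4.4, aligned them to hg38 with Bowtie2 2.3.4, removed duplicates with Picard, called regions per sample with MACS2, removed blacklisted regions and merged regions within 500 bp. For H146 the controls were sequenced in more than 1 batch, and the atlas does not separate them. The authors' deposited files hold region starts, counted from 0, and ends in bp. They give no score or count, so the planned comparison of FHD-286 with untreated cells was left out. Merging and pooling mean that a width or a covered share depends on the number and depth of libraries.

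Coordinates are 1-based. Genes were taken from GENCODE 44 on hg38, after 26 repeated symbols were dropped from 20033 records. The TSS was the 5′ end of the gene. Regions, covered bases and RE1-like matches were computed with Python 3.11.15 and numpy 2.4.6, checked on simulated regions and planted words and against bedtools 2.31.1. Medians and counts over the 38 genes were set beside those of all 20007 genes. No test was run, since each line had 1 atlas. All 38 genes were named with their TSS status. Fuller values were given where TSS status or coverage differed by at least 2-fold, for the 5 highest and 5 lowest ratios and for RE1-like matches in regions. The further genes singled out, and the promoters printed, were chosen after their values were seen. The members, gene lists and words were chosen with earlier results of these data known. Alternatives were other windows, spans and overlaps, regions of at least 500 bp, autosomes only, equal atlas sizes, leaving out regions over other genes' promoters, and another mismatch limit. A marker gene and a sequence are not reported here.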

Additional observations from a re-analysis of the deposited data

How the results depend on the processing

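For 23 results over the whole set, 110 values under another setting were within 1.5 times the first for a count, or inside its 95% interval otherwise, and 15 were not. The interval can be wide: the median covered share in H82 ran from 7.53% with regions of at least 500 bp to 16.5% within 10 kb of the TSS, and the median log2 ratio, 0.06 at first, was -0.015 with regions of at least 500 bp. Within 5 kb of the TSS in place of 1 kb, no gene was open in H82 only (0). Within 10 kb of the TSS in place of the whole span, the median number of regions was 3 in H82 and 3 in H146, the median covered share in H146 was 16.6%, beside that 16.5% in H82, and 2 genes had at least 2-fold more coverage in H82. There the log2 ratio of SV2C reversed to -0.067, that of RIMS1 was 0.07, of DNM1 0.43 and of SYT4 -0.83. In the gene body alone, the median number of regions in H146 was 7.5. With regions of at least 500 bp only, it was 6 in H82 and 6 in H146, no gene (0) had at least 2-fold more coverage in H146, the log2 ratios of SYT4 and RIMS1 were -0.70 and 0.86, 64.7% of H82 regions were shared, and the density of TGTTTAC in H146-only regions was 1.82 times that near all genes. Overlap of at least 50% of both regions left 45.5% of H82 and 49.2% of H146 regions shared, and equal atlas sizes left 59.1% of H146 regions shared. With 4 mismatches allowed, 29 RE1-like matches lay in a region. Of the 14 genes with a log2 ratio of at least 0.5 in size, 13 kept its sign in every setting, with SV2C the exception, and over all 38 genes 24 did. No paired analysis was possible because the atlases hold no value per library. The pooled atlases limit every value here: depth, replicate spread and the effect of FHD-286 were not tested.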

Other observations

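Over the whole genome the RE1-like word with 2 or fewer mismatches was met 785 times, and 290 of these matches (36.9%) lay in a region of either line. Of the 290, 272 lay in an H82 region, 186 in an H146 region and 168 in both. With 3 or fewer mismatches there were 3165 matches, of which 810 (25.6%) lay in a region. The release genes held 9 of the 785 matches in their spans.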
